A study of Homo sapiens with 8 samples.

Results

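Clone 4 was compared with Clone 3, both resistant to the catalytic BCR-ABL inhibitors imatinib and nilotinib, by RNA sequencing with 1 library each. The comparison covers the genes that reached 5 FPKM in the higher of the 2 clones, which were 9322 of the 31402 entries in the deposited table, 8966 of them protein-coding. FPKM scales fragment counts by transcript length and by library depth. Both clones derive from KCL-22, a cell line of human chronic myeloid leukemia in blast crisis, whose cells depend on the fusion kinase BCR-ABL. The line had been tagged with ClonTracer, a lentiviral barcode library, which all 8 libraries of the study share, and the clones were sorted as single cells and expanded.

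Clone 4 was taken from a GNF-2-resistant population and is labelled resistant to all 3 inhibitors (GNF-2 and imatinib at 2.5 µM each, nilotinib at 0.3 µM), although the labels state that it never met a catalytic inhibitor. Clone 3 was taken from an imatinib-resistant population and is labelled resistant to imatinib and nilotinib at those doses, and it never met an allosteric inhibitor. Clones 1 and 2, also of GNF-2-resistant origin, are labelled resistant to GNF-2 only. The GNF-2 population had 21 days in 2.5 µM GNF-2, the nilotinib population 27 days in 0.3 µM nilotinib and the imatinib population 27 days in 2.5 µM imatinib, and the vehicle population had 7 days in 0.1% DMSO. Each clone is 1 cell line descended from 1 cell, so a difference between the clones cannot be told apart from a difference between any pair of cells of this line, and the clones also differ in origin and in drug exposure. With 1 library a side there is no replicate check and no test.

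BCR-ABL is a constitutively active tyrosine kinase that drives chronic myeloid leukemia through STAT5, RAS and MAP kinase signaling. Imatinib and nilotinib occupy the ATP-binding site of ABL, whereas GNF-2 binds the myristate pocket of the kinase. Cells can resist such drugs through mutations in ABL, through drug efflux, or through survival signals that do not need the kinase. RNA levels of a gene do not report mutations in it.

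Both partners of the fusion were abundant in both clones. ABL1 (chromosome 9, 133589268 to 133763062, GRCh37), the tyrosine kinase, had 96.8 FPKM in Clone 4 and 65.9 FPKM in Clone 3, with 65.3 to 110.5 FPKM in the other 6 libraries. BCR (chromosome 22, 23522552 to 23660224), its fusion partner, had 106 FPKM in Clone 4 and 58.8 FPKM in Clone 3, and Clone 4 was the highest and Clone 3 the lowest of the 8 libraries. The log2 differences of 0.55 and 0.83, taken as Clone 4 minus Clone 3 on log2(FPKM + 1) as all differences below, were under 2-fold. A value per gene adds up the fusion and the unrearranged alleles.

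Genes at least 2-fold apart numbered 873 (9.36% of 9322). Clone 4 was higher than Clone 3 at 534 (5.73%) and lower at 339 (3.64%). The median difference over the 9322 genes was 0.07 and the median size of a difference 0.29. Differences of at least 4-fold were found at 161 genes higher and 99 lower in Clone 4, of at least 8-fold at 55 and 50, and of at least 16-fold at 20 and 18. By the number of genes apart, the pair ranked 19 of the 28 pairs of libraries. Among the clones, Clone 4 differed from Clone 2 at 1154 genes and from Clone 1 at 811, and Clone 3 from Clone 2 at 1119 and from Clone 1 at 605.

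The libraries had similar depth, estimated roughly from the smallest step between values at about 23600000 fragments for Clone 4 and 26500000 for Clone 3, which gives about 236 and 265 fragments to a transcript of 2 kilobases at 5 FPKM. The 10 most abundant genes took 7.68% of the FPKM sum in Clone 4 and 10.4% in Clone 3. GC content moved with the direction of the differences: Clone 4 was at least 2-fold higher at 2.84% of the 1793 genes lowest in GC content and at 9.37% of the 1793 highest, while it was at least 2-fold lower at 3.35% and 3.57% of them. With the length and GC trend of the difference removed, 461 genes were higher and 297 lower, 428 and 270 of them the same genes. At the 5 FPKM minimum, SCYL3 (5.01 FPKM in Clone 4 and 4.87 in Clone 3) lay just inside and CHPF (2.15 and 4.997) just outside.

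**Figure D1:**
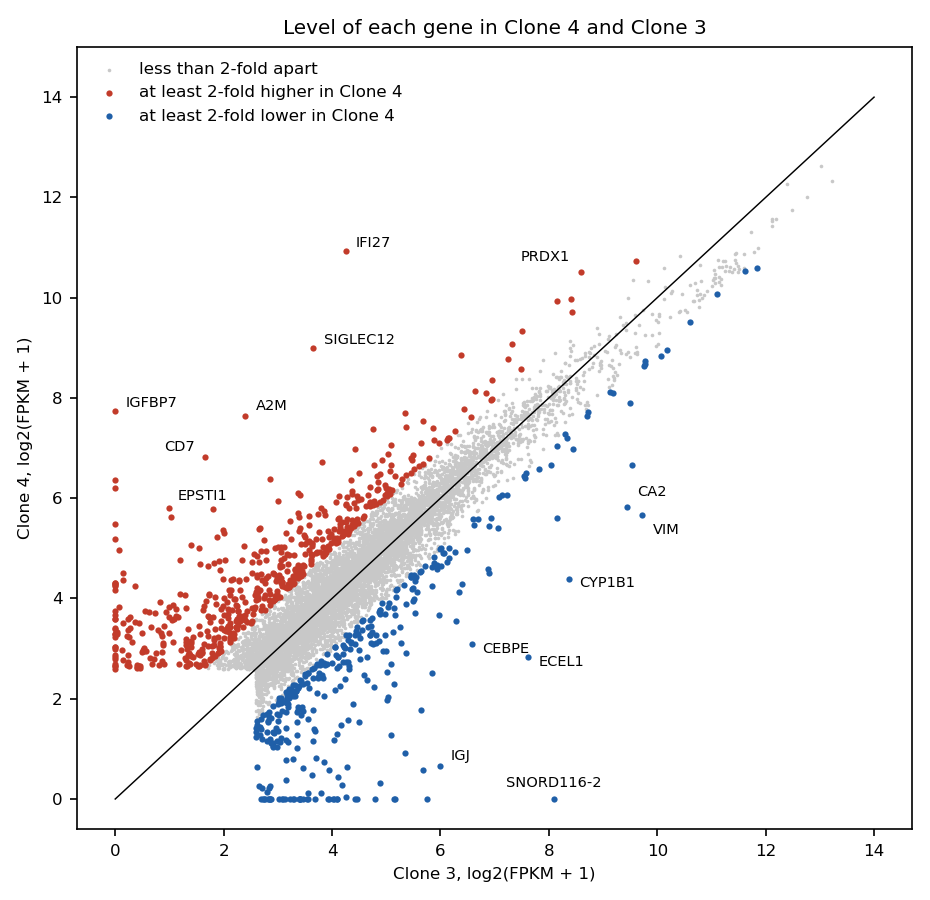
Level of each of the 9322 genes in Clone 4 (vertical axis) and Clone 3 (horizontal axis), both as log2(FPKM + 1), with the line of equal levels. Red points are the 534 genes at least 2-fold higher in Clone 4 and blue points the 339 at least 2-fold lower; the columns and rows of points at 0 are genes listed at 0 in 1 clone.

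Clone 4 stood outside the other libraries more often than Clone 3 did. Of the 533 higher genes with a value in all 8 libraries, Clone 4 lay above the other 7 at 325 (61.0%), where 21.6% of all genes had Clone 4 on top. Clone 3 lay below the other 7 at 202 of them (37.9%, against 14.7% of all genes). At 92 of the 533 both clones were at the extremes, and at 98 neither was. Of the 339 lower genes, Clone 4 was below the other 7 libraries at 171 (50.4%, against 17.6% of all genes) and Clone 3 above them at 133 (39.2%, against 8.64% of all genes). These shares were chosen in part by the 2-fold rule, which favours extreme values in either clone, and they are given as a description.

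Among genes above 0 in both clones, the gene furthest above Clone 3 was IFI27. IFI27 (chromosome 14, 94577079 to 94583033), an interferon-induced membrane protein, had 1957 FPKM in Clone 4 and 18.02 FPKM in Clone 3, then 2.22 in Clone 1, 197 in Clone 2, 113 in the GNF-2 population, 12.6 in the nilotinib population, 366 in the imatinib population and 82.5 in the vehicle population. Clone 4 was far above the next library, the imatinib population, while Clone 3 was among the lower ones. SIGLEC12 (chromosome 19, 51994613 to 52005043), a lectin-like receptor of the SIGLEC family, had 510.2 FPKM in Clone 4 and 11.6 FPKM in Clone 3, then 25.6 in Clone 1, 5.50 in Clone 2, 227 in the GNF-2 population, 80.1 in the nilotinib population, 84.5 in the imatinib population and 152 in the vehicle population. A2M (chromosome 12, 9220304 to 9268558), the secreted protease inhibitor alpha-2-macroglobulin, had 199 FPKM in Clone 4 and 4.26 FPKM in Clone 3, against 13.5 to 82.2 FPKM in the other 6 libraries. For both genes Clone 4 was the highest of the 8, and for A2M Clone 3 was the lowest.

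CD7 (chromosome 17, 80272746 to 80275480), a surface glycoprotein of T cells that some myeloid leukemias also carry, had 112 FPKM in Clone 4 and 2.16 FPKM in Clone 3, with 27.3 to 54.04 FPKM elsewhere, so that Clone 4 was highest and Clone 3 lowest by wide margins. SERPING1 (chromosome 11, 57365027 to 57382326), the C1 inhibitor of complement, had 30.1 FPKM in Clone 4 and 0.056 FPKM in Clone 3; Clone 2 had 36.3 and the remaining libraries at most 0.61. EPSTI1 (chromosome 13, 43462122 to 43566377), an interferon-responsive gene, had 54.5 FPKM in Clone 4 and 1.001 FPKM in Clone 3, with 0.99 to 14.7 FPKM in the other 6. LEF1 (chromosome 4, 108968701 to 109090112), a transcription factor of the Wnt pathway, had 21.9 FPKM in Clone 4 and 0.1 FPKM in Clone 3, and CD38 (chromosome 4, 15779931 to 15850706), an enzyme on the cell surface that consumes NAD, had 18.03 FPKM in Clone 4 and 0.29 FPKM in Clone 3. CD38 was not particular to Clone 4, since the vehicle population had 18.1 FPKM, Clone 1 13.5 and the GNF-2 population 14.1; the low value was that of Clone 3.

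The remaining genes among the 15 furthest above Clone 3 included ATP9A (19.5 against 0.1 FPKM) and ATP10A (13.2 against 0.05), P4-type ATPases that move phospholipids across membranes, and GPR124 (54.2 against 2.50), an adhesion receptor that acts in Wnt signaling. NR2F2 (26.1 against 1.29), a nuclear receptor, and TNS3 (31.2 against 1.93), a tensin of focal adhesions, were likewise higher in Clone 4. Each of these 5 was higher in Clone 4 than in all the other libraries.

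In the other direction, the gene furthest below Clone 3 was IGJ. IGJ (chromosome 4, 71521258 to 71532348), the joining chain of secreted immunoglobulins, had 0.57 FPKM in Clone 4 and 63.03 FPKM in Clone 3, then 187 in Clone 1, 19.2 in Clone 2, 4.45 in the GNF-2 population, 48.5 in the nilotinib population, 15.8 in the imatinib population and 11.9 in the vehicle population. Clone 4 was the lowest of the 8, while Clone 3 was second to Clone 1. BASP1 (chromosome 5, 17217750 to 17276943), a membrane-bound protein of the cell cortex, had 0.49 FPKM in Clone 4 and 49.97 FPKM in Clone 3, with 0 to 28.7 FPKM elsewhere. Clones 1 and 2 were as low as Clone 4 for BASP1, so that Clone 3 was the clone that stood apart. VIM (chromosome 10, 17270258 to 17279592), the intermediate filament vimentin, had 49.5 FPKM in Clone 4 and 845 FPKM in Clone 3, then 293 in Clone 1, 269.8 in Clone 2, 233 in the GNF-2 population, 381 in the nilotinib population, 481 in the imatinib population and 966 in the vehicle population. Here Clone 4 was the lowest library, 49.5 FPKM against at least 233 in all the others.

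CYP1B1 (chromosome 2, 38294746 to 38303323), a cytochrome P450 induced through the aryl hydrocarbon receptor, had 19.9 FPKM in Clone 4 and 329.6 FPKM in Clone 3, then 14.2 in Clone 1, 0.017 in Clone 2, 21.9 in the GNF-2 population, 56.8 in the nilotinib population, 41.99 in the imatinib population and 45.3 in the vehicle population. Clone 3 stood alone at the top, and Clone 4 lay within the range of the other 6. CXCR4 (chromosome 2, 136871919 to 136875725), the receptor for the chemokine CXCL12, had 0.034 FPKM in Clone 4 and 18.02 FPKM in Clone 3, with 0.95 and 1.35 in Clones 1 and 2, 15.6 in the imatinib population and 53.4 in the vehicle population. ECEL1 (chromosome 2, 233344537 to 233352532), a membrane metallopeptidase, had 6.10 FPKM in Clone 4 and 195 FPKM in Clone 3, with 21.4 to 75.9 FPKM elsewhere, so that it was lowest in Clone 4 and highest in Clone 3. CA2 (chromosome 8, 86376131 to 86393721), carbonic anhydrase 2, had 56.01 FPKM in Clone 4 and 692 FPKM in Clone 3, with 20.7 to 378 FPKM elsewhere.

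Further genes among the 15 furthest below Clone 3 were FAM83A (0.25 against 28.6 FPKM), TMEM158 (0.89 against 39.6), the complement receptor C5AR1 (0.21 against 17.1), the G-protein regulator RGS18 (2.44 against 48.8) and SQRDL (1.43 against 33.02), a mitochondrial enzyme that oxidizes sulfide. RCSD1 (0.09 against 12.95), the glycosyltransferase LARGE (0.35 against 16.2) and PLAC8 (0.55 against 18.5) completed them. SQRDL was at least 4.41 FPKM in every library but Clone 4, and C5AR1 was at most 4.82 FPKM in every library but Clone 3. PROCR (4.72 against 56.5), the endothelial protein C receptor, and the neural transcription factor NEUROG2 (1.64 against 11.7) were also highest in Clone 3, with at most 10.96 and 0.87 FPKM in the other 6 libraries.

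**Figure D2:**
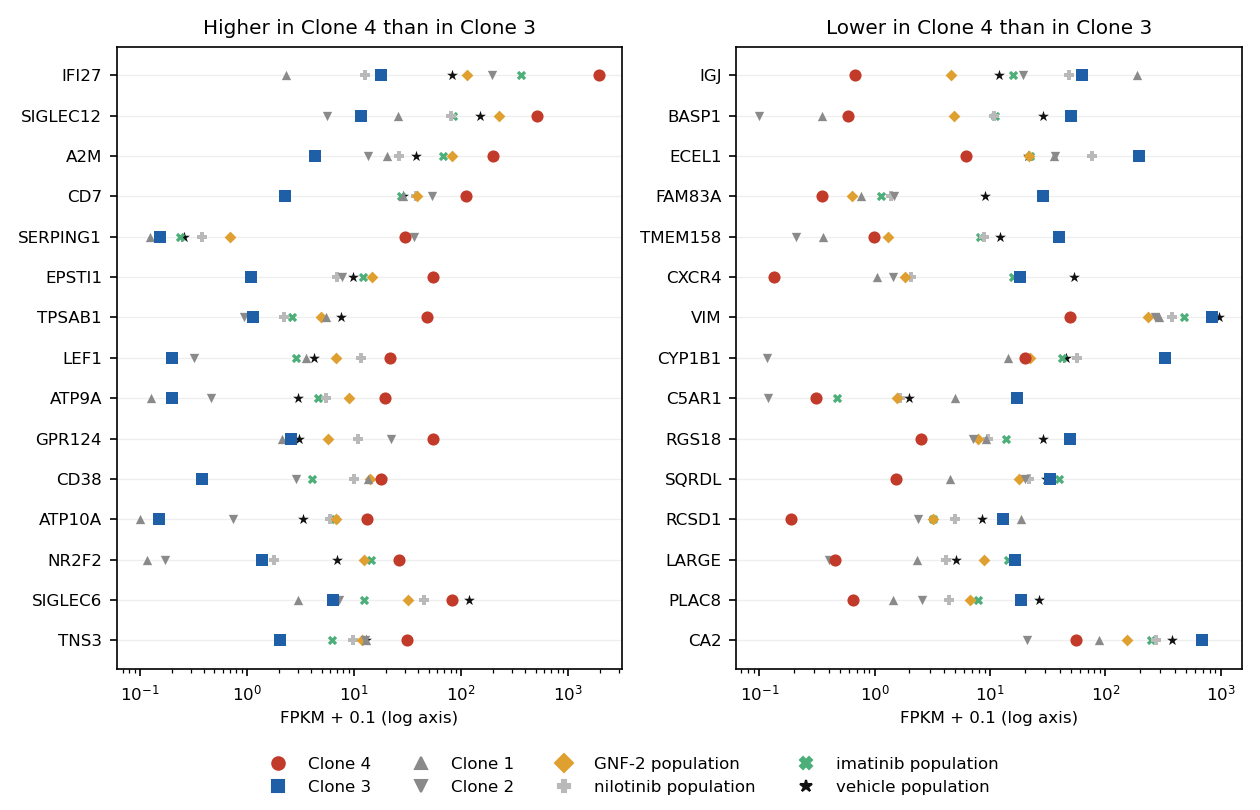
The 15 protein-coding genes furthest above (left) and below (right) Clone 3 in Clone 4, among those above 0 in both clones, with FPKM + 0.1 on a log axis for each of the 8 libraries. Red circles are Clone 4 and blue squares Clone 3; for SERPING1 Clone 2 lies beside Clone 4, and for VIM the 7 other libraries lie between 233 and 966 FPKM, to the right of Clone 4.

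The interferon response list was the list with the most genes apart. Interferons signal through JAK kinases and a complex with STAT2 and IRF9, which binds promoter elements built from repeats of GAAA and induces antiviral proteins. Of the 26 genes of this list that reached 5 FPKM, 16 were at least 2-fold higher in Clone 4 and 0 lower, against 5.73% higher over all genes. Clone 4 was above Clone 3 at 25 of the 26, and it was the highest of the 8 libraries at 20, against 21.6% of all genes. The median difference was 1.28, where that of all genes was 0.07. Over the alternatives of scaling and filtering, 15 or 16 genes were higher.

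The oligoadenylate synthetase family of the list was at least 2-fold higher at each of its 4 members. OAS2 (chromosome 12, 113416274 to 113449528), which makes the 2-5A signal that activates RNase L, had 171 FPKM in Clone 4 and 40.2 FPKM in Clone 3, then 4.72 in Clone 1, 23.7 in Clone 2, 74.6 in the GNF-2 population, 26.8 in the nilotinib population, 46.9 in the imatinib population and 24.9 in the vehicle population. OAS1 (100.5 against 33.2 FPKM), OAS3 (117 against 31.9) and the related OASL (29.98 against 5.44) had the same order of the clones, and for all 4 Clone 4 was the highest library and Clone 1 the lowest. IFIT1 (chromosome 10, 91152322 to 91163744), which binds foreign RNA caps, had 80.8 FPKM in Clone 4 and 19.4 FPKM in Clone 3, with 5.72 to 24.4 FPKM elsewhere, and IFIT3 had 58.5 against 20.3. IFIT2 differed less, with 11.3 against 8.82. MX2 (20.9 against 6.04), a dynamin-like restriction factor, was higher too, while its relative MX1 stayed under 5 FPKM (1.74 against 0.7).

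The ubiquitin-like modifier ISG15 (chromosome 1, 948847 to 949919) had 379 FPKM in Clone 4 and 179 FPKM in Clone 3, and USP18, the protease that removes it, had 49.5 against 13.7. IFI6 (chromosome 1, 27992572 to 27998724), an interferon-induced protein, had 1009 FPKM in Clone 4 and 339.5 FPKM in Clone 3. It had 38.7 FPKM in Clone 1 and 213 in Clone 2. The GNF-2 population had 373, the nilotinib population 136, the imatinib population 228 and the vehicle population 149. Clone 4 held the highest and Clone 1 the lowest value for ISG15, USP18 and IFI6. IFI44L had 48.6 against 9.48, IFI44 56.6 against 23.7, IFI35 54.8 against 18.9 and XAF1 9.76 against 3.66. For IFI44 and XAF1 the GNF-2 population was above Clone 4, with 91.9 and 14.2 FPKM.

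Among the regulators of the response, IRF7 (chromosome 11, 612555 to 615999), the factor that amplifies interferon genes, was at least 2-fold higher and had 72.1 FPKM in Clone 4 and 27.9 FPKM in Clone 3, with 11.3 to 54.1 FPKM elsewhere. STAT2 had 30.4 against 22.8, IRF9 22.6 against 12.5 and IRF1 13.9 against 12.4, each under 2-fold. The membrane proteins IFITM1 (722 against 682), IFITM2 (490.0 against 339) and IFITM3 (1536 against 1122), whose sequences are much alike, and tetherin, BST2 (507 against 333), were under 2-fold apart as well. ISG20 was the only one of the 26 below Clone 3 (22.1 against 23.9). Between the GNF-2 and imatinib populations the median of the same 26 genes was 0.22.

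The promoter stretches of 5 of these genes, those with the largest differences among the genes of the list with a matched promoter that holds the motif, show the repeat that defines the interferon-stimulated response element. Each is the 170 bases before the RefSeq gene start (GRCh38.p14, 5′ to 3′ on the gene's strand), and capitals mark matches to GAAANNGAAA on either strand.
IFI27: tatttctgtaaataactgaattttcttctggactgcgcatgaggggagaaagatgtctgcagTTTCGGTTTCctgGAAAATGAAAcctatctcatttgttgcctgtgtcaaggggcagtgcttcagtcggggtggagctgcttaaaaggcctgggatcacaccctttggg
IFI44L: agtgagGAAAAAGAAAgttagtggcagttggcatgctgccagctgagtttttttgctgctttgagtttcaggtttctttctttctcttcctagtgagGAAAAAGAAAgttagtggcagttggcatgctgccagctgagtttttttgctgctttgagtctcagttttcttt
IFIT1: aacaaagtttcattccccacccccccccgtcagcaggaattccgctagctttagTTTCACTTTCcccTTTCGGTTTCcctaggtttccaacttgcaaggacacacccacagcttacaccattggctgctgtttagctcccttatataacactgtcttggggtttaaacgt
OAS3: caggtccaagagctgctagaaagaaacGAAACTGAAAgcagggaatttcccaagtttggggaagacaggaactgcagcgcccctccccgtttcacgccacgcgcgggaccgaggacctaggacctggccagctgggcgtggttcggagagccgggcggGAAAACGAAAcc
IFI6: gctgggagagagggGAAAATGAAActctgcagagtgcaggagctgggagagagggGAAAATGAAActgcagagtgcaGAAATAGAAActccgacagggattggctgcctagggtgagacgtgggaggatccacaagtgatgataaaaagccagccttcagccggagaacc

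These stretches lie at chr14:94110566-94110735 (plus strand) for IFI27, chr1:78620278-78620447 (plus) for IFI44L, chr10:89392453-89392622 (plus) for IFIT1, chr12:112938304-112938473 (plus) for OAS3 and chr1:27672193-27672362 (minus) for IFI6. IFI6 holds 3 matches and the others 2 each. In IFI27 and IFIT1 the 2 matches lie 3 bases apart, and IFI44L holds its motif in 2 copies of one repeated stretch. Of the genes of the list at least 2-fold higher, 11 had a promoter in the table and 8 (72.7%) held the motif in the 250 bases before the start, as did 4 of the 7 (57.1%) under 2-fold. Among all 27305 promoters 3.07% held it, among the members' promoters 2.46%, among genes at least 2-fold higher in Clone 4 7.51% (29 of 386) and among those at least 2-fold lower 2.82% (7 of 248). A match describes the letters in the window and does not show that a factor binds there.

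Antioxidant genes of the NRF2 list also included several higher in Clone 4. NRF2 is a transcription factor, held in check by KEAP1, that induces enzymes of glutathione and thioredoxin metabolism under oxidative stress. Of 17 genes on the list, 6 were at least 2-fold higher in Clone 4 (5.73% of all genes) and 0 lower (3.64% of all genes), with a median difference of 0.80. Clone 4 was the highest of the 8 libraries at 12 of the 17, against 21.6% of all genes. With the length and GC trend of the difference removed the median was 0.66.

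NQO1 (chromosome 16, 69743304 to 69760533), the quinone reductase used as an index of NRF2 activity, had 54.9 FPKM in Clone 4 and 12.8 FPKM in Clone 3, then 4.18 in Clone 1, 4.33 in Clone 2, 5.41 in the GNF-2 population, 4.18 in the nilotinib population, 4.80 in the imatinib population and 5.998 in the vehicle population. The 6 other libraries lay close together, Clone 3 was above them and Clone 4 further above. PRDX1 (chromosome 1, 45976707 to 45988562), a peroxiredoxin that removes peroxide, had 1463 FPKM in Clone 4 and 383 FPKM in Clone 3, against 312 to 449 FPKM elsewhere, so that Clone 4 alone was high; processed copies of PRDX1 in the genome make its value uncertain. GCLM (chromosome 1, 94352590 to 94375012), a subunit of the enzyme that starts glutathione synthesis, had 27.99 FPKM in Clone 4 and 8.26 FPKM in Clone 3, and its catalytic partner GCLC had 25.3 against 12.98, under 2-fold.

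The thioredoxin reductase TXNRD1 had 146 FPKM in Clone 4 and 70.3 FPKM in Clone 3, with 45.6 to 71.9 FPKM elsewhere. ME1 (142 against 57.99 FPKM), which supplies NADPH, was at least 2-fold higher too, whereas PGD (149 against 155), TKT (259 against 253) and TALDO1 (243 against 186) were not. SRXN1 (50.2 against 25.2) and HMOX1 (8.95 against 4.70) were under 2-fold apart. Thioredoxin itself, TXN (449.5 against 474), the cystine carrier SLC7A11 (16.1 against 15.97) and the ferritin chains FTH1 (618 against 605) and FTL (4918 against 5406) differed little.

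**Figure D3:**
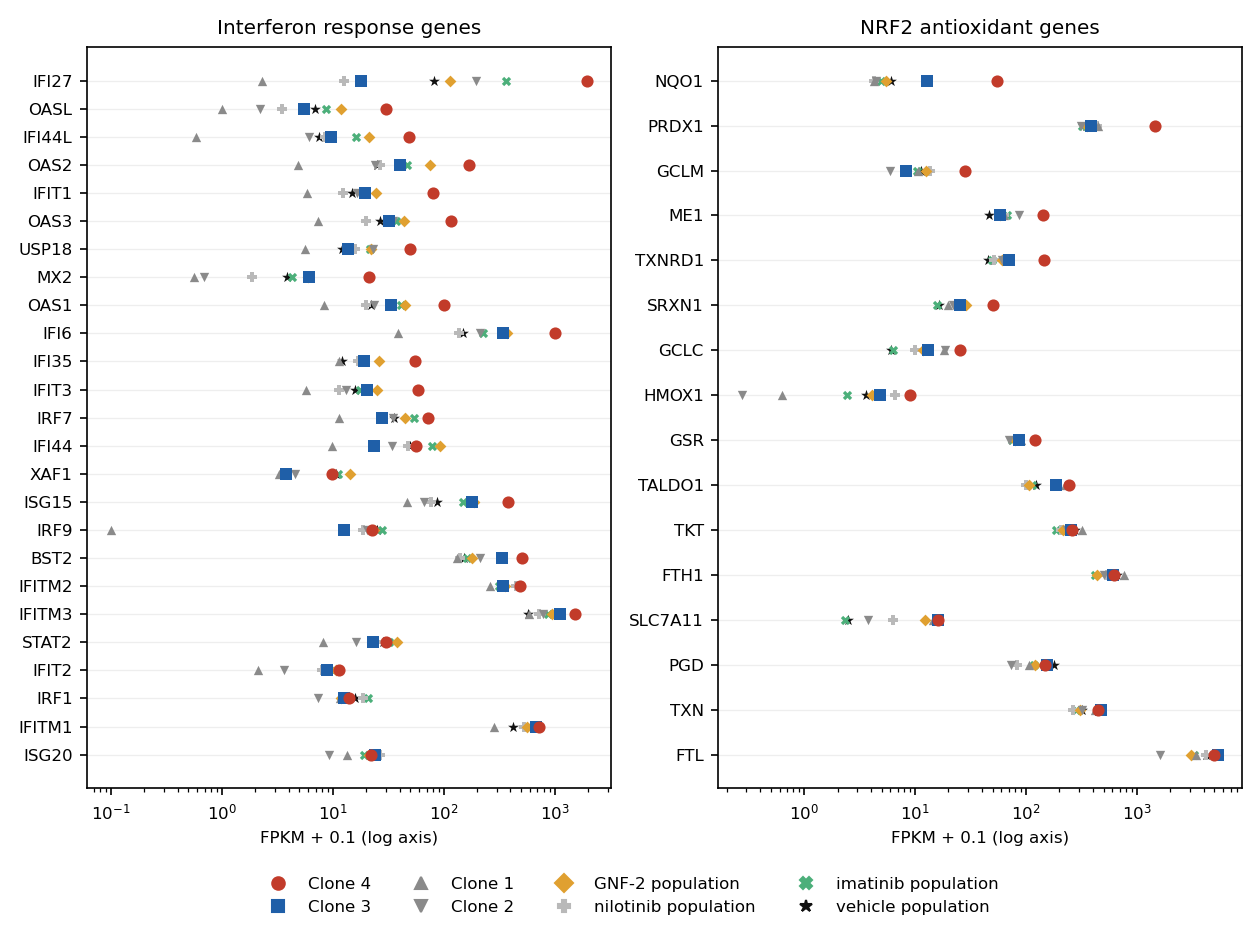
Of the interferon response (left) and NRF2 antioxidant (right) genes that reached 5 FPKM, 25 of 26 and 16 of 17, ordered by the difference between the clones, with FPKM + 0.1 on a log axis for each of the 8 libraries. Clone 4 (red circles) is the rightmost point at 19 of the 25 and at 11 of the 16 genes drawn.

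Among drug transporters, ABCB1 (chromosome 7, 87133179 to 87342639), the P-glycoprotein efflux pump that can export imatinib and nilotinib, had 10.4 FPKM in Clone 4 and 0.36 FPKM in Clone 3, then 1.20 in Clone 1, 1.11 in Clone 2, 0.85 in the GNF-2 population, 1.81 in the nilotinib population, 0.83 in the imatinib population and 0.97 in the vehicle population. Clone 4 was the only library above 2 FPKM. The other carrier of the list apart was SLC22A4 (chromosome 5, 131630145 to 131679899), an organic cation uptake carrier, with 1.01 FPKM in Clone 4 and 9.19 FPKM in Clone 3 and 0 to 2.69 FPKM elsewhere, so that here Clone 3 alone was high. ABCG2, another exporter of these drugs, stayed low (0.27 against 0.04 FPKM), and ABCC1 (44.7 against 32.8), ABCC4 (17.9 against 15.47) and ABCC5 (5.35 against 3.56) were under 2-fold apart. The difference of ABCB1, 3.07, depends on the pseudocount because of the low value in Clone 3, and was 4.51 with 0.1 and 1.52 with 5.

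Targets of BCR-ABL and STAT5 signaling were split. Of 13 genes, 3 were at least 2-fold higher and 1 lower, where 5.73% and 3.64% of all genes were, with a median of -0.04. SOCS3 (19.3 against 6.84 FPKM), a feedback inhibitor of JAK signaling, OSM (16.98 against 6.19), the cytokine oncostatin M, and PIM1 (70.99 against 33.4), a survival kinase, were higher. SOCS1 (47.6 against 121), another feedback inhibitor, was lower. CISH (62.2 against 100.4), SOCS2 (137 against 144), PIM2 (29.6 against 25.1) and MYC (254 against 261) were under 2-fold apart. For SOCS3, OSM and PIM1 the vehicle population was above both clones, at 28.4, 40.6 and 132 FPKM.

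Of 12 feedback and early response genes of the MAP kinase pathway, 4 were at least 2-fold lower in Clone 4 (3.64% of all genes) and 0 higher (5.73% of all genes). The list as a whole had 6 genes above Clone 3 and 6 below, with a median of -0.01. DUSP6 (chromosome 12, 89741837 to 89746296), the phosphatase that switches off ERK, had 14.9 FPKM in Clone 4 and 44.7 FPKM in Clone 3, then 7.58 in Clone 1, 1.26 in Clone 2, 19.7 in the GNF-2 population, 18.2 in the nilotinib population, 11.3 in the imatinib population and 19.1 in the vehicle population. Clone 3 was the highest library for DUSP6, and Clone 4 lay inside the range of the others. ETV4 (1.90 against 9.21 FPKM), PHLDA1 (1.95 against 6.02) and FOSL1 (47.2 against 102), which are induced by ERK, were lower as well. SPRY1 (88.3 against 44.4) and SPRY2 (36.7 against 24.3), inhibitors of the same pathway, stood above Clone 3 by less than 2-fold.

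None of the 12 ABL and SRC family kinases and adaptors was 2-fold apart. LYN, a SRC family kinase that has been tied to imatinib resistance, had 66.7 against 55.03 FPKM, YES1 43.2 against 38.5, FYN 25.7 against 22.1 and CRKL, a BCR-ABL substrate, 57.9 against 54.1. Of 6 receptor tyrosine kinases and ligands, 1 was at least 2-fold higher, beside 5.73% of all genes, which is no result about the list. It was PDGFRB, at 5.04 FPKM in Clone 4 and listed at 0 in Clone 3, with 0.3 to 4.94 FPKM elsewhere. AXL (0.45 against 0.07) and ERBB3 (4.06 against 1.42) did not reach 5 FPKM in either clone, whereas Clone 2 had 22.2 and 36.7. The growth factor HGF had 82.8 against 41.4 FPKM, just under 2-fold, and no value was given for it in the nilotinib population.

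Of 13 genes of the BCL2 family, 2 were at least 2-fold higher and 2 lower, against 5.73% and 3.64% of all genes. BIK (21.7 against 6.48 FPKM) and BAX (60.1 against 28.5), which promote apoptosis, were higher in Clone 4. The survival gene BCL2A1 (1.68 against 7.93) and BMF (2.40 against 9.99), a promoter of apoptosis, were lower. BAX was highest in Clone 4 of the 8 libraries. BCL2 (5.10 against 10.8) was below the other 6 libraries (12.3 to 64.6) in both clones, and BCL2L1 (38.5 against 37.3), MCL1 (108 against 133) and BCL2L11 (4.26 against 3.45) were under 2-fold apart.

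Of 12 p53 targets 1 was higher, BAX, and 1 lower, the death receptor TNFRSF10B (8.05 against 18.7), which is near the 5.73% and 3.64% of all genes and is no result about the list. CDKN2A (chromosome 9, 21967751 to 21994490), the inhibitor of CDK4 and CDK6, had 7.46 FPKM in Clone 4 and 0.85 FPKM in Clone 3 and was the 1 of 8 CDK inhibitors and D cyclins apart. Clone 3 was the lowest library for it, and the GNF-2 population the highest at 16.5 FPKM.

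Markers of blood lineages differed in both directions. Most defining markers of mature lineages were at or near 0 in both clones: the globins HBA1, HBA2, HBB, HBG1 and HBG2 had at most 0.031 FPKM, MPO 0.036 against 0.083 and CD3E 0, and KIT was listed at 0. In such RNA from pooled cells, fewer cells of a kind and less RNA per cell cannot be told apart.

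TPSAB1 (chromosome 16, 1290678 to 1292555), a mast cell tryptase, had 48.1 FPKM in Clone 4 and 1.04 FPKM in Clone 3, then 5.36 in Clone 1, 0.84 in Clone 2, 4.83 in the GNF-2 population, 2.11 in the nilotinib population, 2.54 in the imatinib population and 7.58 in the vehicle population. Clone 4 was the highest library for it, and the near-identical TPSB2 (11.5 against 0.21) followed, although reads of the tryptases cannot be assigned with certainty. SIGLEC6 had 82.9 FPKM in Clone 4 and 6.23 FPKM in Clone 3, but 118 in the vehicle population. These 3 were the genes at least 2-fold higher among 5 mast, basophil and eosinophil markers, where 5.73% of all genes were. Their median difference was 3.37, which rests on low values in Clone 3, and it was 3.71 with a pseudocount of 0.1 and 1.66 with 5. HDC (162 against 136) and GATA2 (287 against 168) were under 2-fold apart, and MS4A2, FCER1A and KIT were listed at 0 in both clones. The summed level of the 15 markers in the table was 592 FPKM in Clone 4 and 312 in Clone 3, with 392 to 1091 in the other libraries.

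Among stem and progenitor genes, CD34 (chromosome 1, 208059883 to 208084683), the surface marker of early blood cells, had 12.2 FPKM in Clone 4 and 0.54 FPKM in Clone 3, then 0.57 in Clone 1, 0.85 in Clone 2, 3.08 in the GNF-2 population, 0.66 in the nilotinib population, 2.08 in the imatinib population and 0.38 in the vehicle population. The transcription factor ERG had 41.5 against 9.69 FPKM. Both were highest in Clone 4, and all 5 genes of the list that reached 5 FPKM were above Clone 3, MEIS1 (18.8 against 10.2), MSI2 (53.3 against 28.6) and GATA2 by less than 2-fold. The median of 0.87 rests on these 5 of the 16 genes on the list.

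Of 14 blood lineage transcription factors, 2 were at least 2-fold higher and 2 lower, beside 5.73% and 3.64% of all genes, and 10 stood above Clone 3 and 4 below. CEBPE (chromosome 14, 23586515 to 23588820), which drives late granulocyte maturation, had 7.48 FPKM in Clone 4 and 95.03 FPKM in Clone 3, then 23.5 in Clone 1, 0.94 in Clone 2, 38.1 in the GNF-2 population, 23.8 in the nilotinib population, 55.5 in the imatinib population and 91.5 in the vehicle population. GFI1 (4.54 against 23.2 FPKM), a transcriptional repressor used in granulocyte development, was lower too. Its relative GFI1B (99.9 against 26.3), used in erythroid and megakaryocyte cells, was higher. Clone 3 was the lowest library for GFI1B, and the GNF-2 population (176 FPKM) and the imatinib population (140) were above Clone 4. IKZF1 had 33.8 against 10.7, and no value was given for it in the nilotinib and vehicle populations. For CEBPE the vehicle population was near Clone 3 and Clone 2 lowest, so that neither clone stood alone; for GFI1, Clone 4 was the lowest and Clone 3 the highest of the 8 libraries.

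The megakaryocyte markers ITGB3 (15.9 against 1.44 FPKM) and GP6 (15.3 against 2.60) were at least 2-fold higher, where 5.73% of all genes were. GP9 (39.8 against 20.3) was just under, and the platelet genes PF4 and PPBP were listed at 0 in both clones. Clone 2 exceeded Clone 4 for ITGB3, GP6 and GP9, with 90.1, 30.1 and 119 FPKM. Clone 3 was the lowest of the 8 libraries at all 3 of these markers, and Clone 4 was the highest at 0 of them. Monocyte markers were lower: CD14 had 11.8 against 34.6, CD68 9.83 against 37.03 and FCGR1A 12.98 against 24.6, the last by less than 2-fold, while LYZ was listed at 0 in both clones and S100A8 and S100A9 were at most 0.19 FPKM. Without FCGR2A, which has no value in Clone 3, the monocyte markers summed to 38.9 FPKM in Clone 4 and 102 in Clone 3, with 9.96 to 97.5 elsewhere.

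Of the 4 granule genes that reached 5 FPKM, CTSG (32.1 against 4.21 FPKM) was higher and AZU1 (0.72 against 7.92) and CST7 (409.9 against 872) lower. Over all genes 5.73% were at least 2-fold higher and 3.64% lower. ELANE (0 against 0.068) and PRTN3 (0.077 against 0.66), proteases of the same granule, stayed under 1 FPKM in both clones. Of the 17 T and NK markers, 4 reached 5 FPKM. CD7 was higher, and CD4 (6.54 against 40.4), NCAM1 (29.2 against 64.9) and NKG7 (208 against 423) were lower. The median of the 4 was -1.07, but with a minimum of 1 FPKM the list median was 0.12, in the other direction. The pre-B chain gene IGLL1 (11.6 against 3.02) was higher in Clone 4 than in Clone 3, and both clones were below the other 6 libraries (22.3 to 117). The epithelial keratins KRT8 (9.88 against 25.5) and KRT18 (23.7 against 56.5) were lower, and GYPC (126 against 121) and the transferrin receptor TFRC (137 against 68.2) were the erythroid list's only genes at 5 FPKM, both under 2-fold.

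Of 10 genes of S100 proteins and the cytoskeleton, 2 were at least 2-fold higher and 3 lower, vimentin among the 3, against 5.73% and 3.64% of all genes. S100A11 (chromosome 1, 152004982 to 152009511) had 47.4 FPKM in Clone 4 and 284 FPKM in Clone 3, then 119.9 in Clone 1, 56.3 in Clone 2, 63.6 in the GNF-2 population, 92.5 in the nilotinib population, 55.7 in the imatinib population and 292 in the vehicle population. Clone 4 was the lowest library, and Clone 3 and the vehicle population were the highest. ANXA2 (85.9 against 185 FPKM), an annexin that binds S100A10, was the third gene lower. TPM4 (chromosome 19, 16178317 to 16213813), a tropomyosin, had 647 FPKM in Clone 4 and 182 FPKM in Clone 3, with 284 to 388 FPKM elsewhere, so that Clone 4 was highest and Clone 3 lowest. S100A6 (65.8 against 24.4) was higher in Clone 4 than in Clone 3, but 4 of the other libraries were above both.

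Adhesion genes included, beside CXCR4, ITGB3 and N-cadherin, CDH2 (chromosome 18, 25530930 to 25757445), which had 10.6 FPKM in Clone 4 and 0.28 FPKM in Clone 3, then 0.088 in Clone 1, 0.0099 in Clone 2, 0.74 in the GNF-2 population, 1.59 in the nilotinib population, 10.3 in the imatinib population and 0.99 in the vehicle population. The imatinib population, of the kind Clone 3 came from, was the only other library above 2 FPKM. Over 15 adhesion genes 2 were higher and 1 lower, against 5.73% and 3.64% of all genes.

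Signaling lists with few genes apart were Wnt and TCF, with LEF1 higher and RSPO2 (0.089 against 10.7 FPKM), a secreted enhancer of Wnt signals, lower among 6, and TGF-beta and BMP, with LTBP1 (3.90 against 34.3) and the inhibitory SMAD6 (1.06 against 6.88) lower among 11. NOTCH3 (49.00 against 22.98) was higher among 8 Notch genes. BCL3 (39.4 against 9.43) and the chemokine CXCL2 (8.35 against 1.70) were higher among 7 NF-kB and cytokine genes. KLF6 (5.43 against 32.9) was lower among 6 FOXO targets. Over all genes 5.73% were at least 2-fold higher and 3.64% lower, and counts this small are no result about these lists. RSPO2 was at most 0.11 FPKM in all 3 clones of GNF-2 origin, against 2.16 in the GNF-2 population.

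Of 14 genes of MHC class I and peptide loading, 2 were higher (5.73% of all genes) and 0 lower. HLA-B had 836 against 344 FPKM, with Clone 2 higher still at 1281; class I genes are near-identical, so their values are uncertain. NLRC5 (18.3 against 8.36), which activates class I transcription, was higher too. HLA-DMA (11.5 against 3.99) was the only MHC class II gene to reach 5 FPKM.

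**Figure D4:**
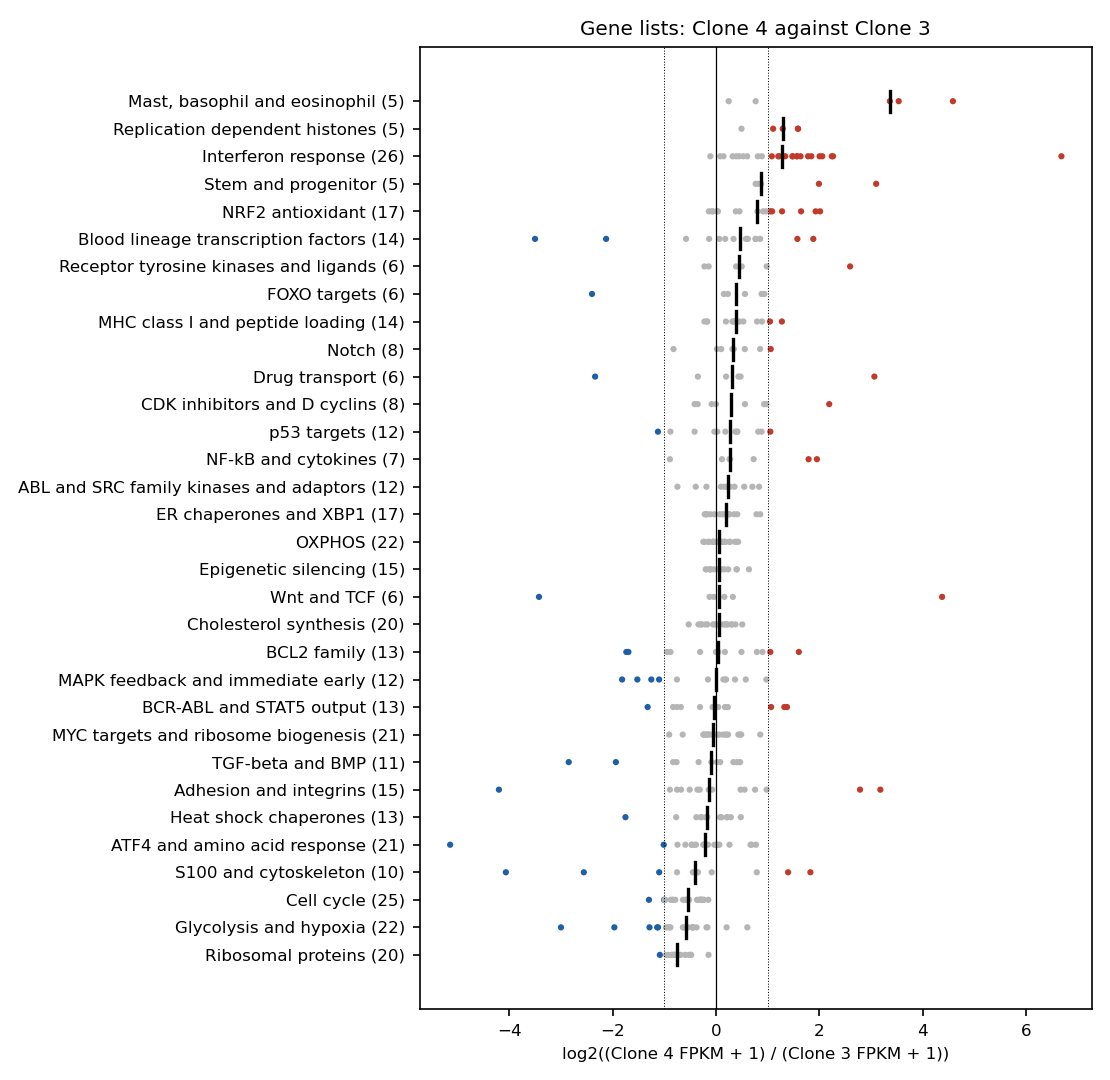
Difference between the clones, log2((Clone 4 FPKM + 1) / (Clone 3 FPKM + 1)), for every gene that reached 5 FPKM in the 32 lists with at least 5 such genes (number in parentheses). Red points are at least 2-fold higher in Clone 4 and blue points at least 2-fold lower, dotted lines mark 2-fold, and black bars are list medians, which run between -0.76 for ribosomal proteins and 3.37 for mast, basophil and eosinophil markers.

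All 25 cell cycle genes had values below Clone 3, with a median difference of -0.55, but only 2 of them by at least 2-fold (3.64% of all genes were that much lower). Clone 4 was the lowest of the 8 libraries at 17 of the 25, against 17.6% of all genes. The replication licensing factor CDT1 (17.4 against 44.3 FPKM) and the mitotic kinase AURKB (8.59 against 18.2) were these 2, and both were higher in every population than in either clone. Glycolysis and hypoxia genes were below Clone 3 at 20 of 22, with a median of -0.58, and 5 were at least 2-fold lower. ADM (chromosome 11, 10326642 to 10328923), a hypoxia-induced peptide, had 3.10 FPKM in Clone 4 and 31.8 FPKM in Clone 3, then 2.13 in Clone 1, 23.9 in Clone 2, 2.23 in the GNF-2 population, 6.21 in the nilotinib population, 34.5 in the imatinib population and 108 in the vehicle population. Clone 1 and the GNF-2 population were lower still than Clone 4 for ADM.

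Among the other glycolysis and hypoxia genes, the carbonic anhydrase CA9 had 1.26 against 7.84 FPKM, PFKFB4 11.8 against 30.3, ENO2 43.4 against 96.8 and BNIP3 130.0 against 284. Between the GNF-2 and imatinib populations the median of this list was -0.60, close in size and in the same direction. Other lists were unlike: ATF4 and amino acid response genes had -0.21 between the clones and 1.03 between the populations. MYC targets and ribosome biogenesis had -0.06 and 0.59.

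All 20 ribosomal protein genes were below Clone 3, with a median of -0.76. These genes are among the most abundant, and many have processed copies in the genome. After quantile normalization, which equalizes the distribution of values between libraries, the median was -0.17.

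Replication-dependent histones were higher at all 5 genes that reached 5 FPKM, 4 of them by at least 2-fold, against 5.73% of all genes. The median of 1.29 rests on these 5 of the 12 genes on the list. HIST1H2BK had 108 FPKM in Clone 4 and 43.4 FPKM in Clone 3, with 14.3 to 32.5 FPKM elsewhere, and HIST1H2AC (33.03 against 10.3), HIST1H2BD (23.8 against 7.25) and HIST2H2BE (7.19 against 2.80) were higher as well. Histone genes are much alike in sequence, so reads of one can be counted for another. Whether the share of RNA without a poly(A) tail differed between these libraries was not tested.

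Lists with no gene apart were MYC targets and ribosome biogenesis (21 genes, median -0.06), oxidative phosphorylation (22, 0.07), cholesterol synthesis (20, 0.05), endoplasmic reticulum chaperones and XBP1 (17, 0.20) and epigenetic silencing (15, 0.06). Of the 3 metallothioneins that reached 5 FPKM none was 2-fold apart (median -0.85). Of 13 heat shock chaperones HSPA1A was lower (2.19 against 9.74 FPKM), a gene with a near-identical copy. Of 21 ATF4 and amino acid response genes 2 were lower, PCK2 (14.04 against 29.3) and DDIT3, which was listed at 0 in Clone 4. Over all genes 3.64% were that much lower, so neither count is a result about its list.

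Some of the largest differences were at exact zeros. Of the genes at least 2-fold higher, 30 were listed at 0 in Clone 3, and of those lower 37 were listed at 0 in Clone 4. IGFBP7 (chromosome 4, 57897237 to 57976551), a secreted insulin-like growth factor binding protein, was at 212 FPKM in Clone 4 and listed at 0 in Clone 3, then 477 in Clone 1, 558 in Clone 2, 110.0 in the GNF-2 population, 124 in the nilotinib population, 58.2 in the imatinib population and 47.3 in the vehicle population. S100A1 (80.8 FPKM in Clone 4), DDT (73.1), MRPS28 (35.2) and FAM120AOS (18.9) were also listed at 0 in Clone 3. IGFBP7 and the kinesin light chain gene KLC4 (8.34 FPKM in Clone 4) were above 0 in all libraries but Clone 3, whereas S100A1, DDT, MRPS28 and FAM120AOS were at 0 in 1 or more of the others as well.

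In the other direction, DDIT3 (chromosome 12, 57910371 to 57914300), the stress factor CHOP, was listed at 0 in Clone 4 and at 34.4 FPKM in Clone 3, then 42.5 in Clone 1, 13.5 in Clone 2, 42.3 in the GNF-2 population, 36.1 in the nilotinib population, 20.1 in the imatinib population and 26.3 in the vehicle population. VAMP8 (21.05 FPKM in Clone 3), EEFSEC (16.03), RUSC1 (15.2) and PIGB (11.9) were likewise at 0 in Clone 4 alone, and MUTED (26.8) and RFC4 (15.50) in Clone 4 and at least 1 other library. RFC4, a subunit of the clamp loader that all dividing cells use, and all 19 mitochondrial entries were at 0 in some or all libraries, so a 0 in this table can be a failed estimate. WDR83 was listed at 11.7 FPKM in Clone 4 and at 0 in the other 7 libraries, and the entries uc021pwo (44.1) and SNAR-G2 (18.6) had the same pattern. The small nucleolar RNA SNORD116-2 (272 FPKM in Clone 3) and the entry uc021pic (52.6) were above 0 in Clone 3 alone. Of 29 small nucleolar RNAs that reached 5 FPKM, 19 (65.5%) were apart, against 9.36% of all genes. The fragment numbers given above are for transcripts of 2 kilobases and do not cover entries this short.

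The populations of the kind each clone came from gave a comparison with no library in common. The GNF-2 population was at least 2-fold higher than the imatinib population at 201 of 9644 genes (2.08%) and lower at 153 (1.59%). Higher in both comparisons were 49 genes, which is 9.18% of the 534 and 24.4% of the 201. Lower in both were 32 genes, 9.44% of the 339 and 20.9% of the 153. The opposite way in the populations were 11 of the higher genes (2.06%) and 7 of the lower ones (2.06%). Whether the clones were sorted from these same cultures is not stated in the labels.

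Among the genes apart the same way, SIGLEC12 differed by 1.42 between the populations and LEF1 by 1.02. S100A1 (4.99), MRPS28 (5.04) and SMAGP (3.97) were listed at 0 in the imatinib population and in Clone 3. IGJ differed by -1.63, BASP1 by -1.05 and TMEM158 by -2.05, while SERF2-C15ORF63 and SNORD89 were listed at 0 in Clone 4 and in the GNF-2 population. CXCR4 (-2.61) and ADM (-3.46) were lower in the GNF-2 population as well. For ABCB1 (0.02), NQO1 (0.15), PRDX1 (0.13) and CD34 (0.40), which were far apart between the clones, the populations were less than 2-fold apart.

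**Figure D5:**
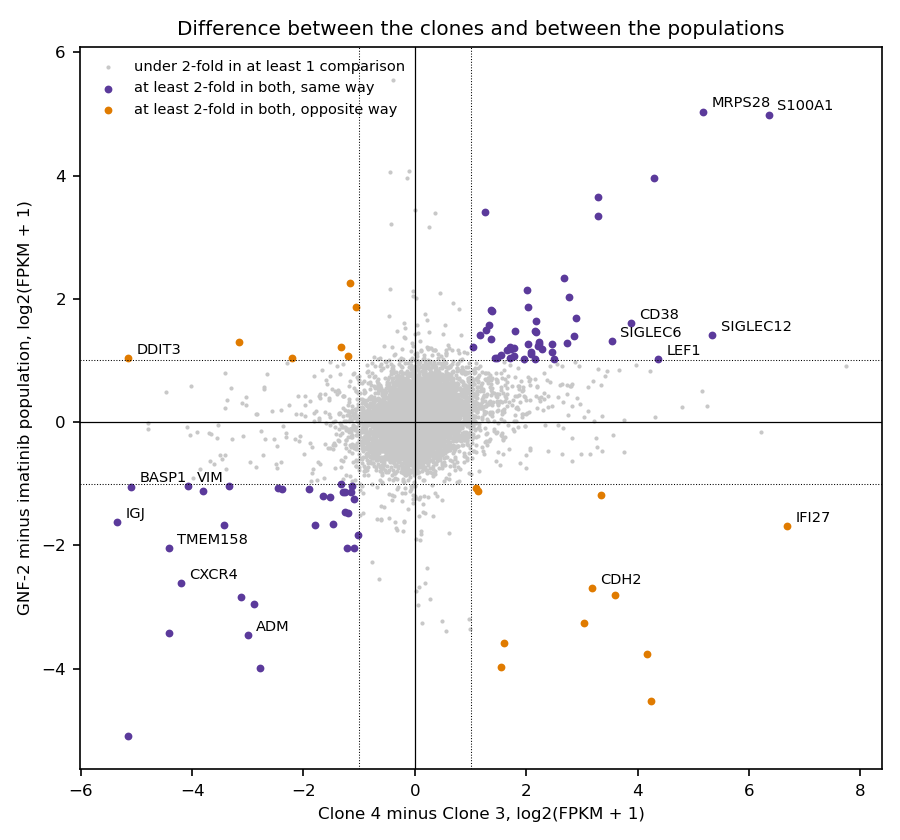
Difference between Clone 4 and Clone 3 (horizontal axis) against the difference between the GNF-2 and imatinib populations (vertical axis), both on log2(FPKM + 1), for genes that reached 5 FPKM in the higher library of both comparisons. Purple points are the 49 higher and 32 lower genes at least 2-fold apart the same way in both, orange points are at least 2-fold apart in opposite directions, and dotted lines mark 2-fold.

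Differences were spread over the genome. Median differences by chromosome lay between -0.03 (chromosome 18) and 0.18 (chromosome 22). Over runs of 25 neighbouring genes the 1st and 99th percentiles of the medians were -0.24 and 0.37. The highest run was on chromosome 19 (55602281 to 56672262, GRCh37), with a median of 0.54 and a median transcript GC content of 64.6%. The lowest, -0.43, lay on chromosome 8, with a median GC content of 39.5%. The part of GC content in these 2 values was not tested.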

How the data were processed

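Total RNA of 8 KCL-22 libraries was sequenced on an Illumina platform. The authors deposited 1 table of FPKM values, with 1 value per entry and library. Per the submitters' processing notes the tools were TopHat 1.3 and Cufflinks 1.3 and the build GRCh37. The header gives no unit, so FPKM was inferred from Cufflinks and from the values. No source used here states whether the library kit marked strand, so reads of overlapping genes cannot be told apart. No read counts were used here, and depth was estimated from the smallest step of FPKM times length over 666 intronless genes, which is rough.

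Columns were matched to samples by the label in the sample description. An entry was kept when the higher of the 2 clones had at least 5 FPKM, and called apart at a difference of at least 1 on log2(FPKM + 1), which understates the change of low genes. In 21 entries 1 of the clones has no value, and these were left out. The calling code was run on simulated counts with planted changes and counting noise only. That run does not measure variation between libraries or clones. Starts were written 1-based. Biotypes came from the reference gene table, matched for 23282 of the 23470 Entrez identifiers. Transcript length and GC content came from GENCODE release 29, and promoters from RefSeq on GRCh38.p14. No test was made, because each side has 1 library.

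The members and the 41 gene lists (33 of pathways, 8 of cell type markers) were chosen with earlier results of these data known. Named genes were the 15 largest differences each way above 0 in both clones, the 5 largest each way listed at 0 in 1 clone, ABL1 and BCR, up to 4 genes apart per list, and the 5 largest each way apart in the same direction between the populations or with 1 clone outside the other 7 libraries. Further list members were named after their values were seen, to describe a list, and a few are not reported here by name. Alternatives were pseudocounts of 0.1 and 5, a plain ratio, minimums of 1 and 10 FPKM or none, rescaling by median ratios, quantile normalization, entries above 0 in all 8 libraries and protein-coding genes only; removal of the length and GC trend was chosen after seeing the data. Python 3.11.15, numpy 2.4.6, pandas 2.3.3 and matplotlib 3.10.9 were used.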

Additional observations from a re-analysis of the deposited data

Results flagged for a closer look

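For 4 named genes the clones differed in one direction and the populations of the kind they came from differed in the other, each by at least 2-fold. The difference of the differences was not tested, since each side has 1 library. IFI27 was higher in Clone 4 than in Clone 3 by 6.69 on log2(FPKM + 1) and differed by -1.69 between the GNF-2 and imatinib populations. DDIT3, listed at 0 in Clone 4, differed by -5.14 between the clones and by 1.04 between the populations. CDH2 differed by 3.18 between the clones and by -2.70 between the populations. HIST2H2BE differed by 1.11 and -1.08.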

How the results depend on the processing

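The counts of genes at least 2-fold apart were 534 higher and 339 lower in Clone 4. They stayed within 1.5 times under every alternative run except a pseudocount of 5, which gave 310 and 190. The 2 directions were closer in number after rescaling by median ratios (490 higher and 373 lower) and after quantile normalization (443 and 370). Counting populations at least 1.5-fold apart, 139 higher and 66 lower genes went the same way in clones and populations. Counting a clone outside the other 7 libraries only when by at least 1 on the log2 scale, Clone 4 was above at 85 and below at 41 genes, and Clone 3 below at 40 and above at 35. With a minimum of 1 FPKM the T and NK median reversed to 0.12, and the medians were 0.58 for CDK inhibitors and D cyclins, 0.87 for histones, 1.45 for megakaryocyte, 0.13 for neutrophil granule and -0.88 for monocyte genes. Quantile normalization gave 0.16 for blood lineage transcription factors and -0.17 for ribosomal proteins. Pseudocounts of 0.1 and 5 gave 2.51 and 1.42 for megakaryocyte and 3.71 and 1.66 for mast, basophil and eosinophil genes. The cause was not tested beyond what each alternative's own construction sets. The other 216 list medians, all 69 chromosome medians and 473 of 632 values of named genes moved by less than 0.29, the median size of a difference, or kept within 1.5 times; no named gene reversed. With no filter the counts equal those with a minimum of 1 FPKM, since a 2-fold difference after adding 1 needs that much. No replicate could be left out, as each group has 1 library. No paired analysis was possible because each group has 1 library. At about 236 fragments for 2 kilobases at 5 FPKM, counting error is small beside 2-fold, but shorter transcripts have fewer fragments at the same FPKM. A value of 0 may be a failed estimate.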
